A study of Mus musculus with 40 samples.

Results

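Krüppel-like factors (KLFs) are zinc-finger transcription factors that bind GC-rich and CACCC sequences, and 9 of their genes (Klf2, Klf3, Klf4, Klf5, Klf6, Klf7, Klf9, Klf10 and Klf13) are described here across mouse melanoma cells in which the clock factor Bmal1 was removed or added. The members were taken from a list of gene symbols after the Ensembl identifiers of the count table were matched to mouse symbols, which gave 9 genes of 51789. The measurements are QuantSeq 3′ mRNA sequencing counts of 40 libraries, 2 for each of 20 groups, with totals of 3643332 to 22970049 counts. The study calls the duplicates of B16-F10, YUMM2.1 and hairpin cells biological replicates, while the labels do not say whether cultures were separate, so p-values measure the spread between these libraries.

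The cells are established lines of mouse melanoma. B16-F10 cells were compared as Ctrl and Bmal1 KO, which the study calls a control clone and a knockout clone. A difference between clones cannot be told apart from loss of Bmal1 there. YUMM2.1 cells, from a tumor with mutant Braf, Cdkn2a+/- and 1 stabilized β-catenin allele (Bcat STA/+), and YUMM1.7 cells, from a tumor with mutant Braf and Cdkn2a-/-, carried an empty vector (EV), WT-Bmal1 (the normal protein) or dHLH-Bmal1, which lacks the domain that contacts DNA but still pairs with Clock. The same 3 constructs were put into YUMM2.1KO cells, which are 1 Bmal1-null clone, aC3, of YUMM2.1. In a further experiment YUMM2.1 cells with each of the constructs also carried a control hairpin (shNC) or 1 of 2 hairpins against Myh9, the heavy chain of non-muscle myosin IIA (shMyh9#2 and shMyh9#4). All groups of one experiment share the same construct and hairpin controls, so the comparisons within an experiment are not independent of each other.

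KLFs fall into classes by the cofactors they recruit. Klf3 binds the corepressor CtBP and mainly represses, Klf2, Klf4, Klf5, Klf6 and Klf7 carry activating regions and work with acetyltransferases, and Klf9, Klf10 and Klf13 bind the Sin3A corepressor. Several are immediate responders to outside signals: Klf2 to fluid shear through MEF2 factors, Klf4 to serum, differentiation and stress signals, Klf9 to glucocorticoid and thyroid hormone, and Klf10 to TGFβ. Klf4 is also a pluripotency factor and shapes epithelial and melanoma cell states, and Klf9 and Klf10 are known outputs of the circadian clock, whose Clock-Bmal1 dimer binds the E-box CACGTG.

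The promoters of the members differed in the letters that such factors read. RefSeq promoters (GRCm38.p6) were held for 7 of the 9 members, not for Klf5 and Klf10. Each was searched on both strands over the 250 bases before the gene's start in RefSeq. By the gene positions of GENCODE, the whole Klf7 window (chr1:64121390-64121639) and a later part of the Klf2, Klf3 and Klf6 windows lie inside the gene. The E-box CACGTG was in the Klf4 and Klf6 promoters and in 6.02% of all 32851 promoters. The GC box GGGCGG, which KLF and SP factors themselves can bind, was in 6 members, with 6 matches in Klf3, 4 in Klf4, 3 in Klf13, 2 in Klf2 and 1 each in Klf6 and Klf7, and in 32.7% of all promoters. The 6 GC boxes of Klf3 began between 89 and 222 bases before the RefSeq start. The one at 89 bases lies past the GENCODE start and is not in the stretch printed below. The MEF2 pattern, CTA and TAG with 4 bases between them, was in Klf2 and in 3.2% of all promoters, and the core TGACG of the cyclic AMP response element was in Klf2, Klf4, Klf9 and Klf13 and in 17.8%. The CACCC pattern CCACCC was in Klf2, Klf3, Klf7 and Klf13 and in 28.1%, and by GENCODE its matches in Klf2, Klf3 and Klf7 lie inside the gene. A match describes the letters only. The sequences are given for the 3 members that changed most often (Klf4, Klf3 and Klf9), for Klf6, the other member with an E-box, and for Klf2, up to the start of the gene in RefSeq or GENCODE, whichever comes earlier. Capitals mark the E-box in Klf4 and Klf6, GC boxes in Klf3, TGACG in Klf9 and the MEF2 pattern in Klf2.
Klf4, chr4:55532476-55532725, minus strand: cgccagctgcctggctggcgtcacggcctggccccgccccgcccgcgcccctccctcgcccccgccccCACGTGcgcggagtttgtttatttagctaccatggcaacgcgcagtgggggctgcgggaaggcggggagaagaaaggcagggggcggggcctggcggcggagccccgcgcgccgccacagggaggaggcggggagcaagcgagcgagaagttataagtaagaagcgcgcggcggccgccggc
Klf6, chr13:5861239-5861481, plus strand: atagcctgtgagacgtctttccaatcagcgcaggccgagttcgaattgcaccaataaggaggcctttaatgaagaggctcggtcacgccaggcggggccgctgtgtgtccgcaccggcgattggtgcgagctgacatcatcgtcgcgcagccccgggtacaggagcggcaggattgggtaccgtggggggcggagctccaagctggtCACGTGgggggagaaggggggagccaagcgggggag
Klf3, chr5:64803271-64803387, plus strand: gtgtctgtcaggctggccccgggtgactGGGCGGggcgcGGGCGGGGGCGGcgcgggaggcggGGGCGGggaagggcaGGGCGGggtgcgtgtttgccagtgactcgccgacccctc
Klf9, chr19:23140976-23141225, plus strand: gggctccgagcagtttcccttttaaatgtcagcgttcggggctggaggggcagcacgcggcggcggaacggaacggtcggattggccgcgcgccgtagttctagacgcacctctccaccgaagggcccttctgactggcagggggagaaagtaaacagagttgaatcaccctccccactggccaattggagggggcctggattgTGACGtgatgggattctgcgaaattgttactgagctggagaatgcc
Klf2, chr8:72318812-72319032, plus strand: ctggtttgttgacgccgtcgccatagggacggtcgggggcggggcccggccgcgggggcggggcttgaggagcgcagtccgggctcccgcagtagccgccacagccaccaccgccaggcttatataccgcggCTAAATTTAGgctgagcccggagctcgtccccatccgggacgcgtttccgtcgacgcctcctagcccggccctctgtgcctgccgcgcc

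In the Klf4 promoter the E-box began 182 bases before the RefSeq start, and in Klf6 it began 43 bases before. The genes lie in GRCm38 at chr4:55527143-55532466 (Klf4), chr13:5861482-5870394 (Klf6), chr5:64803388-64832901 (Klf3), chr19:23141226-23168134 (Klf9), chr8:72319033-72321656 (Klf2), chr1:64029447-64122282 (Klf7), chr14:99298691-99315036 (Klf5), chr15:38291463-38300706 (Klf10) and chr7:63886351-63938915 (Klf13), and each is protein-coding. Klf3 overlaps 2 other genes that held up to 320 counts in a library. The genes that overlap Klf7 and Klf9 held 0 counts and those that overlap Klf13 held at most 5. The strand of counting is not given in the sources used here.

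Before the members, the targeted genes and the cells were checked. In the hairpin experiment Myh9 fell by 1.51 to 2.04 on the log2 scale with shMyh9#2 and by 0.42 to 0.93 with shMyh9#4 (edgeR adjusted p of at most 0.00715 in all 6 comparisons). Arntl, which encodes Bmal1, had 13.0 counts per 1000000 reads (CPM) in B16-F10 Ctrl and 12.4 in B16-F10 Bmal1 KO, and 14.99 in YUMM2.1 EV and 31.5 in YUMM2.1KO EV. Reads from the 3′ end of the transcript do not test whether an edited gene still gives protein, and the labels could not be checked that way. The sum of 7 melanocyte markers was 19656 to 26032 CPM in B16-F10 libraries, 31.8 to 620.2 in YUMM2.1 and YUMM2.1KO libraries and 10.7 to 14.8 in YUMM1.7 libraries. Mlana and Tyrp1 had no count in any YUMM library. The 4 immune markers summed to at most 0.678 CPM and the 3 keratinocyte markers to at most 0.485 CPM in any library.

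A pair of libraries needs to be known before the values are read. YUMM2.1 EV replicate 2 and YUMM2.1 WT-Bmal1 replicate 1 each matched the other group's column in the study's own table of these cells, so that their labels may have been exchanged. Over 13648 genes, EV replicate 1 correlated more with WT-Bmal1 replicate 1 (Pearson r = 0.986) than with EV replicate 2 (0.965). WT-Bmal1 replicate 2 correlated more with EV replicate 2 (0.981) than with WT-Bmal1 replicate 1 (0.976). Results below keep the deposited labels, and calls of members that changed with the labels exchanged are given beside them, as are the Klf4 values.

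Levels of the members spanned 3 orders of size. Since 1 read stands for 1 transcript end here, counts do not grow with transcript length, and CPM are set side by side between genes. Other differences between genes in how their reads are counted were not tested. Over the 20 groups, group means were 166 to 609.9 CPM for Klf3, 98.0 to 217 for Klf6, 84.9 to 151 for Klf13, 37.3 to 114 for Klf7 and 24.1 to 131 for Klf9. They were 4.26 to 15.3 CPM for Klf10, 1.15 to 12.1 for Klf2 and 0.289 to 6.17 for Klf5, whose fold changes rest on few reads. Klf4 ranged from 3.46 CPM in B16-F10 Bmal1 KO to 774.7 CPM in YUMM2.1 dHLH-Bmal1 shMyh9#4, a ratio of 224 between the highest and lowest group. The same ratio was 21.3 for Klf5, 10.5 for Klf2 and between 1.77 and 5.45 for the other 6 members. Every member had more than 3 counts in each of the 40 libraries.

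**Figure D1:**
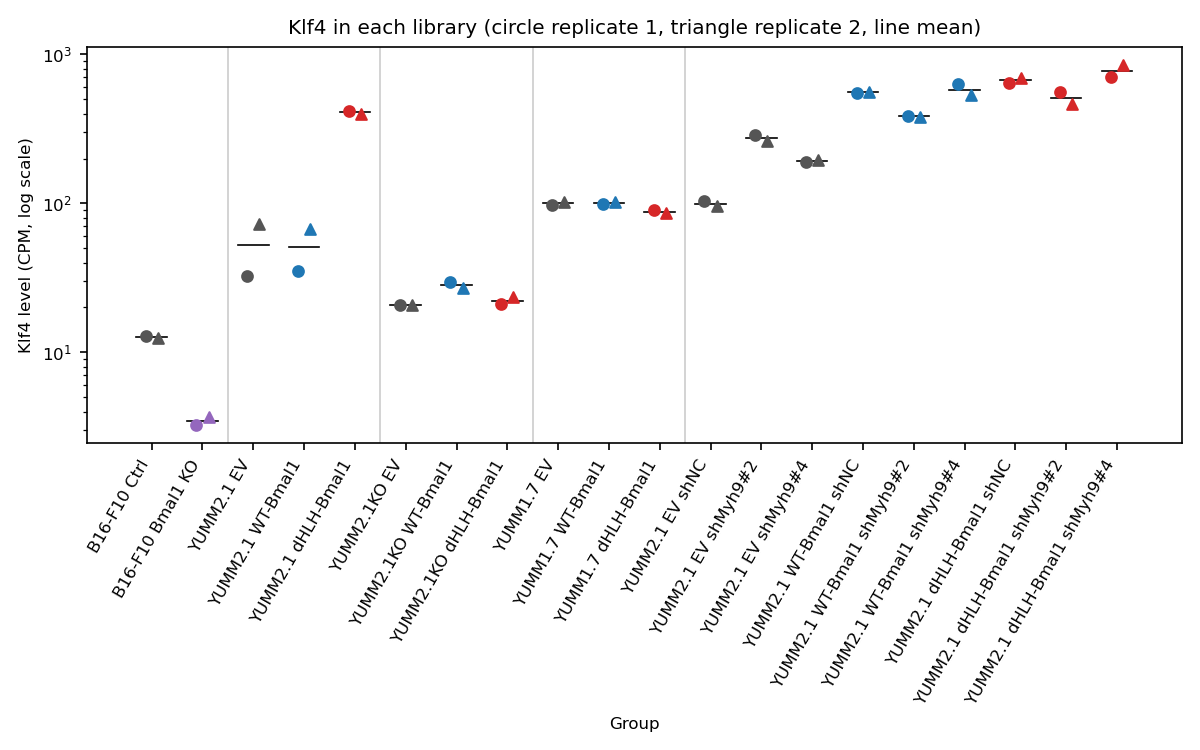
Klf4 in all 40 libraries in CPM on a log axis, by group, with circles for replicate 1, triangles for replicate 2 and a line at the group mean (gray EV or Ctrl, purple Bmal1 KO, blue WT-Bmal1, red dHLH-Bmal1). Levels run from 3.25 CPM in a B16-F10 Bmal1 KO library to 848.8 CPM in a dHLH-Bmal1 shMyh9#4 library, and the 2 libraries of YUMM2.1 EV and of YUMM2.1 WT-Bmal1 lie apart.

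Klf4 changed most often. Over the 19 comparisons of a knockout, construct or hairpin with its control or with the other construct, Klf4 passed the test in 8 (7 higher and 1 lower), Klf3 in 6 (all higher) and Klf9 in 6 (4 higher and 2 lower). Klf7 passed in 3 (2 higher and 1 lower), Klf2 in 2 (both higher) and Klf13 in 1 (higher). Klf5, Klf6 and Klf10 passed in 0 of 19 by edgeR's quasi-likelihood test at an adjusted p under 0.05. The share of all genes that passed ran from 0% to 26.4% between these 19 comparisons and is given with each below. Klf6 ranged from -0.57 to 0.48 on the log2 scale over these comparisons.

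**Figure D2:**
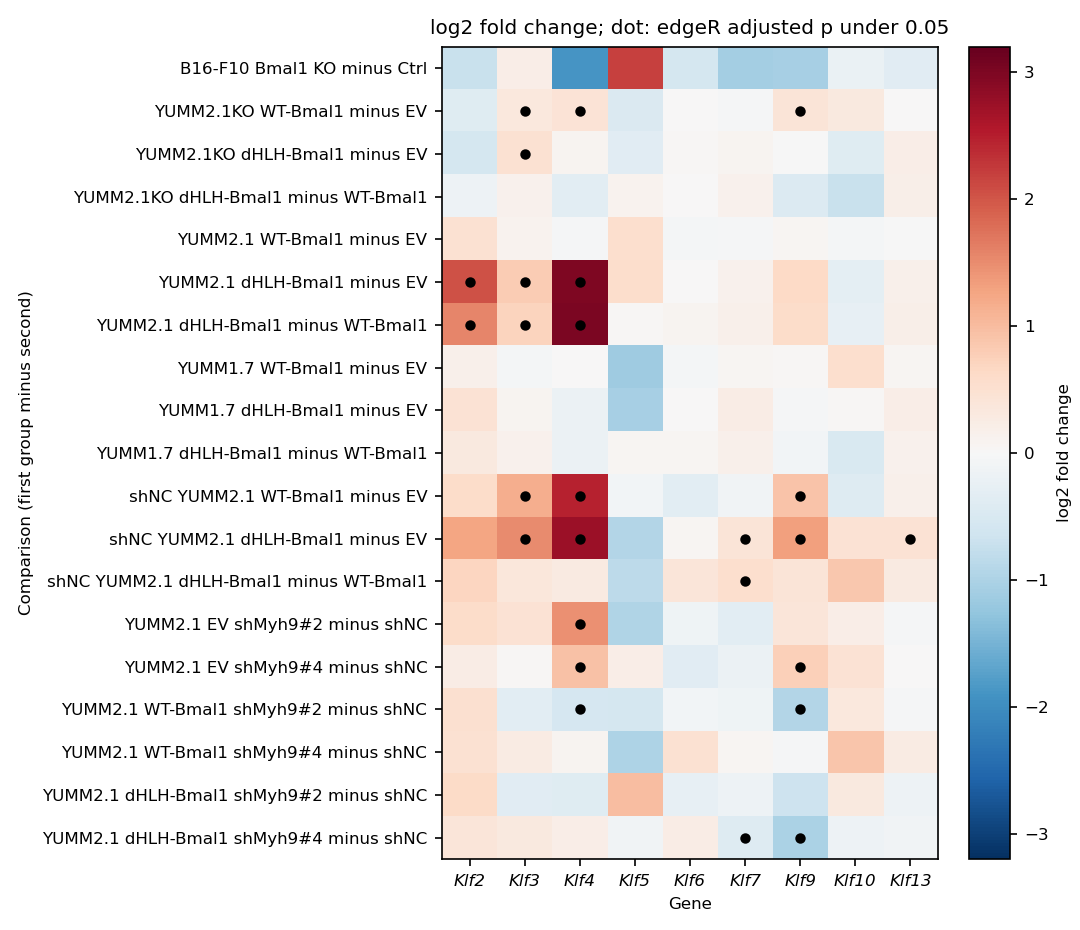
log2 fold changes (color, red higher and blue lower in the group named first) of the 9 members in 19 comparisons, with a dot where the edgeR adjusted p was under 0.05. Klf4, Klf3 and Klf9 hold 20 of the 26 dots, and the YUMM1.7 comparisons hold 0. Of all genes, 0% to 26.4% passed in a comparison.

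Klf4 RNA was lower in the libraries of the B16-F10 Bmal1 KO clone than in those of Ctrl, though it did not pass by edgeR. Klf4 was at 12.8 and 12.5 CPM in the Ctrl libraries and at 3.25 and 3.67 CPM in the Bmal1 KO libraries. Both knockout libraries lay below both controls, with a log2 fold change of -1.88 ± 0.25 (SE), which is 3.67-fold lower. By edgeR the adjusted p was 0.0716, and 0 of 9 members passed, against 0.44% of all 14556 genes tested in this comparison, while 4 members had an unadjusted p under 0.05.

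Klf7, a factor of neuronal growth, was at 82.7 and 75 CPM in Ctrl and at 40.9 and 33.7 CPM in Bmal1 KO (log2 fold change -1.09 ± 0.18, adjusted p = 0.123). Klf9 was at 54.3 and 45.5 CPM in Ctrl and at 28.7 and 19.5 CPM in Bmal1 KO (-1.06 ± 0.24, adjusted p = 0.214). The groups did not overlap for either gene. Their tests depended on the tool: DESeq2's Wald test called Klf4 (adjusted p = 2.42e-05), Klf7 (0.000952) and Klf9 (0.0209) lower, 3 of 9 members, and called 433 genes in all (3.09%) where edgeR called 64.

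The knockout libraries differed from each other more than any other pair of replicates. Klf10, the TGFβ-inducible member, was at 8.05 and 6.30 CPM in Ctrl, at 11.7 CPM in knockout replicate 1 and at 0.859 CPM in knockout replicate 2. Klf6 was at 148 and 142 CPM in Ctrl and at 120 and 75.8 CPM in the knockout, and Klf3 was at 173 and 174 CPM against 172 and 233 CPM. Without knockout replicate 1 all 9 members passed, 7 lower and Klf3 and Klf5 higher, and without knockout replicate 2 Klf4, Klf7 and Klf9 passed as lower and Klf10 as higher, so that the knockout result of Klf10 changed direction with the library left out. Over all genes 43.4% passed without knockout replicate 1 and 14.5% without knockout replicate 2.

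In YUMM2.1 cells, dHLH-Bmal1 raised Klf4, Klf3 and Klf2. Klf4 was at 32.7 and 72.8 CPM in EV, at 34.9 and 66.8 CPM in WT-Bmal1 and at 419.7 and 396.0 CPM in dHLH-Bmal1. Both dHLH-Bmal1 libraries lay far above the other 4. The log2 fold change against EV was 2.98 ± 0.43 (7.88-fold, edgeR adjusted p = 0.00729) and against WT-Bmal1 3.02 ± 0.43 (8.09-fold, adjusted p = 0.00715).

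Klf3 was at 165 and 193 CPM in EV, 185 and 197 CPM in WT-Bmal1 and 295 and 321 CPM in dHLH-Bmal1, again with no overlap between dHLH-Bmal1 and the rest. It was 1.75-fold higher than in EV (log2 0.81 ± 0.13, adjusted p = 0.0117) and 1.63-fold higher than in WT-Bmal1 (0.70 ± 0.13, adjusted p = 0.0178). Klf2, the shear-responsive factor, was at 1.34 and 1.62 CPM in EV, 2.04 and 2.08 in WT-Bmal1 and 7.07 and 4.94 in dHLH-Bmal1. It rose 4.12-fold over EV (log2 2.04 ± 0.37, adjusted p = 0.016) and 2.93-fold over WT-Bmal1 (1.55 ± 0.36, adjusted p = 0.0336). These 3 of 9 members compare with 13.2% of genes called against EV and 13% against WT-Bmal1. The median log2 fold change of the 9 members against EV was 0.57, beside -0.01 over all 14323 genes tested.

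Klf9 was at 46.2 and 38.7 CPM in EV and at 80.8 and 49.6 CPM in dHLH-Bmal1, and did not pass (log2 0.64, adjusted p = 0.121). With the replicate number as a block it did, against EV (0.62, adjusted p = 0.0174) and against WT-Bmal1 (0.56, adjusted p = 0.0292). If the 2 labels in question were exchanged, this block would separate EV from WT-Bmal1 libraries. With these labels exchanged and no block, Klf9 did not pass by edgeR (adjusted p = 0.0737 and 0.0555). Leaving out a single library removed some of the calls of Klf4, Klf3 and Klf2. The Klf4 call against WT-Bmal1 was lost without WT-Bmal1 replicate 1 (adjusted p = 0.0556), those against EV without EV replicate 1 and without dHLH-Bmal1 replicate 1 (Klf2) or 2 (Klf3), and those against WT-Bmal1 without either WT-Bmal1 library or dHLH-Bmal1 replicate 2, that of Klf2 also without dHLH-Bmal1 replicate 1. With both libraries in question left out, Klf2 and Klf3 no longer passed against WT-Bmal1 (adjusted p = 0.171 and 0.209), and with their labels exchanged both still did.

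Whether WT-Bmal1 itself moved Klf4 in these cells turned on the labels in question. The study names Klf4 among the genes that both constructs increased in them. As deposited, the log2 fold change of Klf4 between WT-Bmal1 and EV was -0.04 (95% interval -0.83 to 0.76, adjusted p = 1), and 0 of 9 members passed, or had an unadjusted p under 0.05, as 0% of all genes passed. The Klf4 values fall into a pair at 32.7 and 34.9 CPM and a pair at 66.8 and 72.8 CPM, and each group held 1 library of each pair. With the labels of the 2 libraries exchanged the groups no longer overlapped, and Klf4 was 2.06-fold higher in WT-Bmal1 (log2 1.04 ± 0.11, adjusted p = 0.00567). With both libraries left out, 1 library a group, the log2 fold change was 1.03 (adjusted p = 0.388). The excess of Klf4 in dHLH-Bmal1 over EV was 12.2-fold after the exchange and 12.5-fold with both left out, and that over WT-Bmal1 was 5.91-fold and 6.13-fold.

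In the Bmal1-null clone Klf4 was raised by WT-Bmal1 and not detectably by dHLH-Bmal1. In YUMM2.1KO cells Klf4 was at 20.8 and 20.9 CPM with EV, at 29.5 and 27.1 CPM with WT-Bmal1 and at 20.97 and 23.4 CPM with dHLH-Bmal1. The WT-Bmal1 libraries lay above the other 4, with a 1.35-fold difference from EV (log2 0.43 ± 0.13, adjusted p = 0.0419), while dHLH-Bmal1 differed from EV by 0.08 (95% interval -0.17 to 0.34, adjusted p = 0.734). Klf9 was also highest with WT-Bmal1: 25.8 and 25.2 CPM with EV, 34.8 and 33.3 CPM with WT-Bmal1, and 26.5 and 23.98 CPM with dHLH-Bmal1. It was 1.33-fold higher with WT-Bmal1 than with EV (log2 0.41 ± 0.12, adjusted p = 0.0358).

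Klf3 was higher with both constructs in the null clone, at 180 and 151 CPM with EV, 218 and 202 CPM with WT-Bmal1 (log2 0.33 ± 0.10, adjusted p = 0.0465) and 249 and 215 CPM with dHLH-Bmal1 (0.48 ± 0.10, adjusted p = 0.00854). Both construct groups lay above EV without overlap. In all, 3 of 9 members passed for WT-Bmal1 against EV and 1 of 9 for dHLH-Bmal1 against EV, where 11.2% and 10.9% of all genes did, and 0 of 9 passed between the constructs, where 0.877% did and 3 members had an unadjusted p under 0.05. DESeq2's Wald test kept the 2 calls of Klf3 and not those of Klf4 and Klf9. The 3 calls for WT-Bmal1 were lost without any single EV or WT-Bmal1 library, that of Klf3 for dHLH-Bmal1 without EV replicate 2, and all 4 in one fit of the 40 libraries. Sox10, a defining factor of the melanocyte lineage, was higher with both constructs (log2 0.30, adjusted p = 0.0389, and 0.37, adjusted p = 0.0147). The sum of the 7 melanocyte markers, Sox10 among them, was 449.8 to 462 CPM with EV, 562 to 564 CPM with WT-Bmal1 and 557 to 620.2 CPM with dHLH-Bmal1, and that of 3 endothelial markers 6.65 to 7.54, 11.99 to 12.5 and 9.12 to 11.3 CPM. Their part in the KLF differences was not tested.

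In YUMM1.7 cells 0 of 27 tests of the members passed. The shares of all genes that passed were 0.138% for WT-Bmal1 against EV, 0.63% for dHLH-Bmal1 against EV and 2.57% between the constructs. Klf4 was at 97.6 and 102.2 CPM with EV, 98.8 and 101.8 CPM with WT-Bmal1 and 89.8 and 86.4 CPM with dHLH-Bmal1. The log2 fold change was 0.01 for WT-Bmal1 against EV (95% interval -0.13 to 0.14) and -0.18 for dHLH-Bmal1 against EV (-0.31 to -0.05, edgeR adjusted p = 0.337). The log2 fold change of 2.98 seen with dHLH-Bmal1 in YUMM2.1 lay outside the dHLH-Bmal1 interval, and the effects are tested against each other below. DESeq2's Wald test also called 0 of 27, and 2, 4 and 4 members had an unadjusted p under 0.05 in these comparisons.

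The difference between cells was tested directly. The log2 effect of dHLH-Bmal1 on Klf4 was smaller than in YUMM2.1 both in YUMM2.1KO (difference -2.88 ± 0.41, adjusted p = 0.000209) and in YUMM1.7 (-3.16 ± 0.39, adjusted p = 0.000112). For Klf2 the difference was -2.59 ± 0.59 in YUMM2.1KO (adjusted p = 0.00713), and for Klf3 it was -0.70 ± 0.16 in YUMM1.7 (adjusted p = 0.00809), a call lost without EV replicate 1 or dHLH-Bmal1 replicate 1 of YUMM1.7. So 2 of 9 members passed in each of these comparisons, where 15.5% and 12.4% of all genes did. The effect of WT-Bmal1 differed for 0 of 9 members in either pair of cells (0.208% and 0% of all genes) with the deposited labels, and 0 had an unadjusted p under 0.05. With the labels exchanged, the effect of WT-Bmal1 on Klf4 differed from that in YUMM2.1 by -0.60 ± 0.13 in YUMM2.1KO (adjusted p = 0.00851) and by -1.04 ± 0.12 in YUMM1.7 (adjusted p = 0.000122). Klf6 then also passed narrowly for WT-Bmal1 in YUMM2.1KO (0.44, adjusted p = 0.0498), as did Klf9 for dHLH-Bmal1 in YUMM1.7 (-0.59, adjusted p = 0.0448). With both libraries in question left out, the Klf4 differences for WT-Bmal1 were -0.61 in YUMM2.1KO and -1.04 in YUMM1.7.

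**Figure D3:**
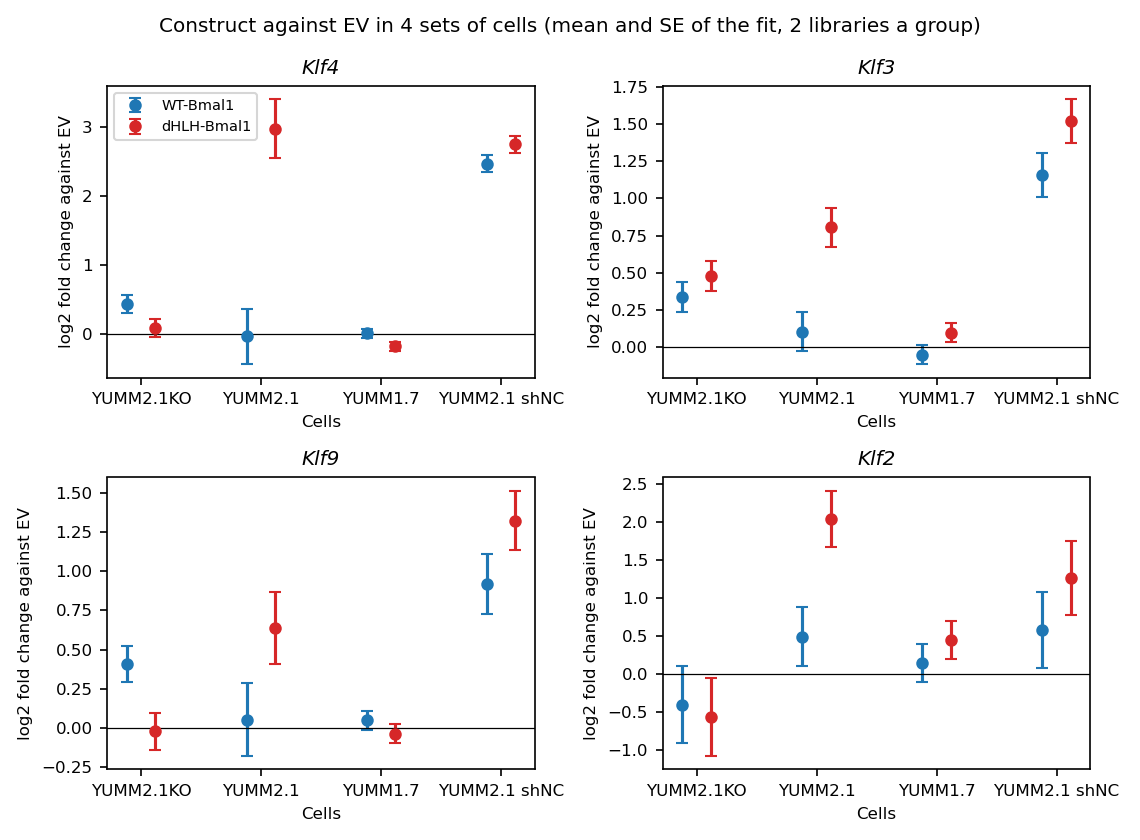
log2 fold change of Klf4, Klf3, Klf9 and Klf2 against EV for WT-Bmal1 (blue) and dHLH-Bmal1 (red) in 4 sets of cells, as the estimate and SE of edgeR fits with 2 libraries a group and the deposited labels. Klf4 in dHLH-Bmal1 cells stands at 2.98 in YUMM2.1 and 2.75 in YUMM2.1 with shNC, and at 0.08 and -0.18 in YUMM2.1KO and YUMM1.7.

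In the hairpin experiment both constructs raised Klf4, Klf3 and Klf9 in YUMM2.1 cells with the control hairpin. Klf4 was at 103.0 and 96.4 CPM with EV, 551.0 and 560.7 CPM with WT-Bmal1 and 640.1 and 697.7 CPM with dHLH-Bmal1. It rose 5.54-fold with WT-Bmal1 (log2 2.47 ± 0.12, adjusted p = 3.77e-10) and 6.72-fold with dHLH-Bmal1 (2.75 ± 0.12, adjusted p = 3.09e-11). The constructs differed from each other by 0.28 (95% interval 0.05 to 0.50, adjusted p = 0.301). EV libraries of this experiment held more Klf4 than the YUMM2.1 EV libraries without a hairpin (32.7 and 72.8 CPM), a difference that cannot be told apart from that between the experiments.

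Klf3 was at 164 and 180 CPM with EV, 372 and 399 CPM with WT-Bmal1 and 475 and 508 CPM with dHLH-Bmal1. The groups did not overlap, and the rise was 2.23-fold (log2 1.16 ± 0.15, adjusted p = 2.03e-05) and 2.86-fold (1.52 ± 0.15, adjusted p = 5.45e-07). Klf9 was at 46.5 and 40.2 CPM with EV, 89.4 and 75.7 CPM with WT-Bmal1 and 115 and 101 CPM with dHLH-Bmal1, 1.89-fold (0.92 ± 0.19, adjusted p = 0.00194) and 2.50-fold (1.32 ± 0.19, adjusted p = 4.51e-05) above EV. Every one of these 6 calls held when any single library of the experiment was left out.

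Klf7 and Klf13 passed for dHLH-Bmal1 and not for WT-Bmal1 against EV. Klf7 was at 85.4 and 84.7 CPM with EV, 84.7 and 74.1 CPM with WT-Bmal1 and 113 and 115 CPM with dHLH-Bmal1, higher than EV by 0.42 ± 0.11 on the log2 scale (adjusted p = 0.0106) and than WT-Bmal1 by 0.53 ± 0.12 (adjusted p = 0.0202). Klf13, an activator of Ccl5 in T cells, was at 89.0 and 83.8 CPM with EV and at 117 and 119 CPM with dHLH-Bmal1 (0.45 ± 0.10, adjusted p = 0.00242). The Klf7 calls were lost without either dHLH-Bmal1 shNC library, against EV also without either EV shNC library and against WT-Bmal1 without WT-Bmal1 shNC replicate 2, and that of Klf13 without EV shNC replicate 2. Klf2 was at 1.1 and 3.25 CPM with EV and at 4.99 and 5.68 CPM with dHLH-Bmal1 and did not pass (log2 1.27, adjusted p = 0.0622).

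In all, 3 of 9 members passed for WT-Bmal1 and 5 of 9 for dHLH-Bmal1 against EV, all higher, and 1 of 9 between the constructs, where 22.3%, 26.4% and 1.91% of all genes passed. The median of the 9 members was 0.17 for WT-Bmal1 and 0.46 for dHLH-Bmal1 on the log2 scale, beside 0.02 over all 14848 genes tested in both comparisons. Sox10 moved with these groups. It was at 327 to 334 CPM in EV shNC, 99.0 to 100.3 CPM in WT-Bmal1 shNC and 22.7 to 26.1 CPM in dHLH-Bmal1 shNC, and in YUMM2.1 cells without a hairpin at 485 to 504 CPM with EV and 66.0 to 72.1 CPM with dHLH-Bmal1. The sum of the 7 melanocyte markers was 343 to 349 CPM in EV shNC, 119 to 122 CPM in WT-Bmal1 shNC and 41.2 to 44.3 CPM in dHLH-Bmal1 shNC, with Mlana, Tyrp1 and Dct at 0 in all of them. Sox10 is 1 of the 7 and the larger part of these sums, which therefore say little of the other markers. The sum of 3 endothelial markers was 7.96 to 10.03 CPM in EV shNC, 21.01 to 21.5 CPM in WT-Bmal1 shNC and 14.5 to 16.6 CPM in dHLH-Bmal1 shNC, with Kdr at 0 or at most 0.273 CPM. The part of these genes in the KLF differences was not tested.

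Knockdown of Myh9 raised Klf4 in EV cells. With EV, Klf4 went from 103.0 and 96.4 CPM with shNC to 286.9 and 262.1 CPM with shMyh9#2 and 189.3 and 196.7 CPM with shMyh9#4. Both hairpin groups lay above shNC, 2.75-fold (log2 1.46 ± 0.12, adjusted p = 9.4e-07) and 1.91-fold (0.94 ± 0.12, adjusted p = 0.000222), and both calls held without any single library. The hairpin that lowered Myh9 more gave the lower mean Klf4 level with WT-Bmal1 (383 against 580 CPM) and with dHLH-Bmal1 (513 against 775 CPM). With EV it gave the higher level, and the hairpins were not tested against each other. Klf9 was at 54.9 and 59.3 CPM with shMyh9#2 and at 71.6 and 77.6 CPM with shMyh9#4, where it passed narrowly (0.77 ± 0.19, adjusted p = 0.0496), a call lost with the replicate block (or in one fit of all 40 libraries) and on leaving out any 1 of 12 of the 18 libraries, among them all 6 with EV and all 6 with shNC. Sox10 fell in both hairpin groups, by 0.83 and 0.44 on the log2 scale (adjusted p = 7.59e-05 and 0.0374). The melanocyte sum, which includes Sox10, was 343 to 349 CPM with shNC, 202 to 219 CPM with shMyh9#2 and 248 to 288 CPM with shMyh9#4, and the endothelial sum 7.96 to 10.03, 16.6 to 18.6 and 13.5 to 17.9 CPM. The part of these markers in the KLF values was not tested. For shMyh9#2 1 of 9 members passed and for shMyh9#4 2 of 9, against 6.65% and 1.71% of all genes.

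In cells that carried a Bmal1 construct, Klf4 passed as higher in 0 of the 4 comparisons of a Myh9 hairpin with shNC. With WT-Bmal1 it was at 551.0 and 560.7 CPM with shNC, 386.5 and 380.2 CPM with shMyh9#2 and 628.4 and 532.1 CPM with shMyh9#4. The shMyh9#2 group lay below shNC by 0.54 ± 0.12 on the log2 scale (adjusted p = 0.0107), a call lost without any 1 of its 4 libraries and in one fit of all 40, and shMyh9#4 differed by 0.08 (95% interval -0.15 to 0.30). With dHLH-Bmal1 it was at 640.1 and 697.7 CPM with shNC, 562.5 and 464.4 CPM with shMyh9#2 (-0.40, adjusted p = 0.181) and 700.6 and 848.8 CPM with shMyh9#4 (0.22, adjusted p = 0.218).

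Klf9 fell in some of these groups. With WT-Bmal1 it was at 89.4 and 75.7 CPM with shNC and at 42.2 and 43.5 CPM with shMyh9#2 (log2 -0.95 ± 0.19, adjusted p = 0.00605), near the EV shNC level of 46.5 and 40.2 CPM. With dHLH-Bmal1 it was at 115 and 101 CPM with shNC and at 61.7 and 46.5 CPM with shMyh9#4 (-1.01 ± 0.19, adjusted p = 0.00304), where Klf7 also fell, from 113 and 115 CPM to 90.0 and 80.4 CPM (-0.42 ± 0.12, adjusted p = 0.0244). The groups did not overlap in these comparisons. In dHLH-Bmal1 cells shMyh9#4 lowered Myh9 by 0.42 on the log2 scale, and its libraries held 3643332 and 6001340 counts. With shMyh9#2, which lowered Myh9 by 1.69 there, Klf9 was at 54.1 and 80.9 CPM and did not pass by edgeR (-0.67, adjusted p = 0.146). The melanocyte sum was 119 to 122 CPM in WT-Bmal1 shNC and 56.5 to 59.2 CPM in WT-Bmal1 shMyh9#2, and 41.2 to 44.3 CPM in dHLH-Bmal1 shNC and 69.8 to 73.9 CPM in dHLH-Bmal1 shMyh9#4, and its part in the Klf9 and Klf7 values was not tested. The Klf9 calls were lost without WT-Bmal1 shNC replicate 1 or either WT-Bmal1 shMyh9#2 library, and without dHLH-Bmal1 shNC replicate 1 or shMyh9#4 replicate 2, and that of Klf7 without either dHLH-Bmal1 shNC library or shMyh9#4 replicate 2. Of 9 members, 2 passed for shMyh9#2 with WT-Bmal1 (4.76% of all genes), 0 for shMyh9#4 with WT-Bmal1 (0.236%), 0 for shMyh9#2 with dHLH-Bmal1 (0.559%) and 2 for shMyh9#4 with dHLH-Bmal1 (15.1%). In the comparisons with 0 calls, 4 and 5 members had an unadjusted p under 0.05.

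**Figure D4:**
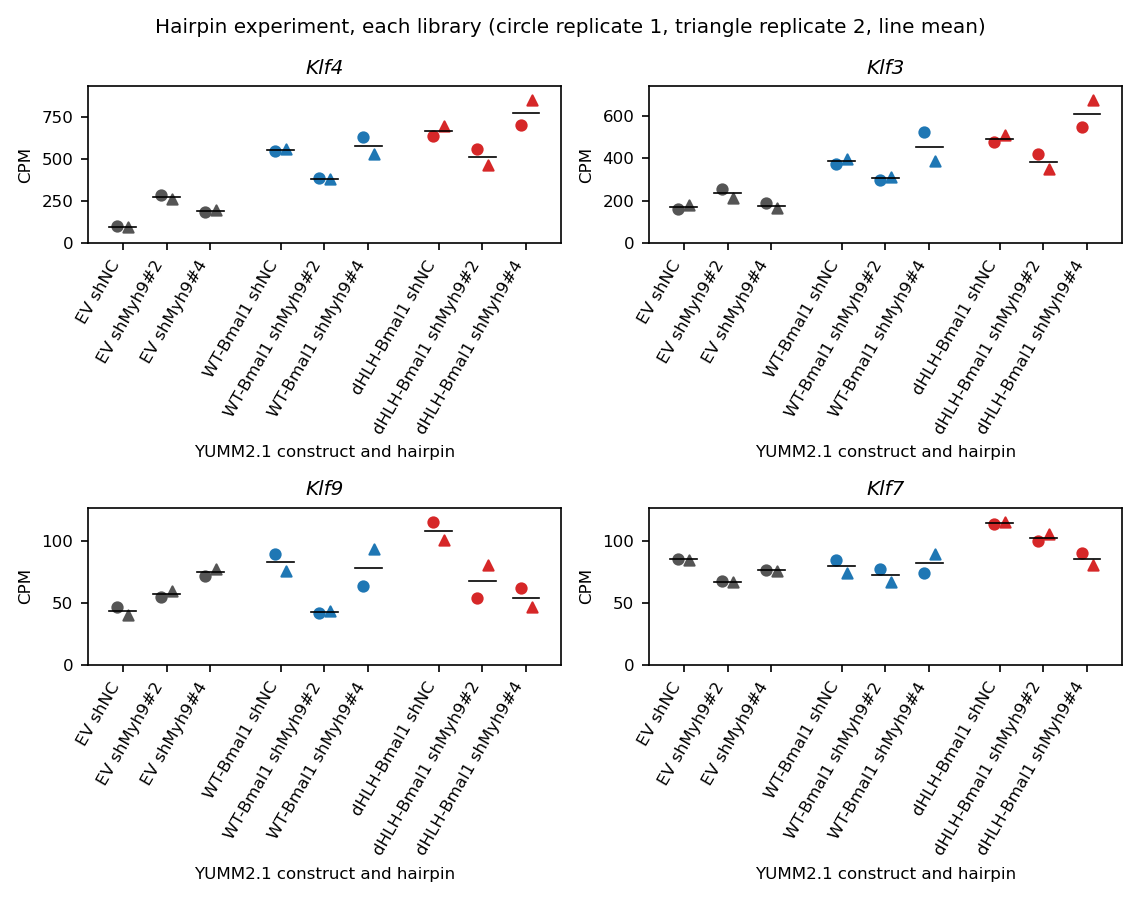
Klf4, Klf3, Klf9 and Klf7 in CPM in the 18 libraries of the hairpin experiment, by construct and hairpin, with circles for replicate 1, triangles for replicate 2 and lines at group means (gray EV, blue WT-Bmal1, red dHLH-Bmal1). With EV, Klf4 is above shNC with both Myh9 hairpins, and with WT-Bmal1 it is lowest with shMyh9#2.

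The effect of shMyh9#2 differed between EV cells and cells with a construct. For Klf4 the log2 effect in WT-Bmal1 cells differed from that in EV cells by -1.999 ± 0.17 (adjusted p = 9.46e-07), and that in dHLH-Bmal1 cells by -1.85 ± 0.17 (adjusted p = 5.57e-06). For Klf9 the differences were -1.35 ± 0.27 (adjusted p = 0.00718) and -1.07 ± 0.27 (adjusted p = 0.0355), and for Klf3 -0.79 ± 0.21 (adjusted p = 0.0336) and -0.82 ± 0.21 (adjusted p = 0.0368). So the same 3 of 9 members passed in both, where 5.18% and 3.29% of all genes did. Klf3 itself was at 164 and 180 CPM with shNC and at 256 and 215 CPM with shMyh9#2 in EV cells, and at 372 and 399 CPM and at 299 and 312 CPM in WT-Bmal1 cells, and neither change passed on its own (log2 0.45, adjusted p = 0.0772, and -0.34, adjusted p = 0.216). The Klf4 differences held without any single library. The Klf9 difference for WT-Bmal1 was lost without EV shNC replicate 2, that for dHLH-Bmal1 without any 1 of 11 libraries, and each Klf3 difference without any 1 of 8 libraries, among them both EV shNC libraries in all 3 cases.

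Klf4, Klf9 and Klf2 differed between control cells of the lines, where 1.75% to 54.5% of all genes passed in a comparison. The study calls B16-F10 Ctrl a control clone, while the YUMM cells carried EV. This cannot be told apart from a difference between B16-F10 and the YUMM lines. Klf4 was at 12.8 and 12.5 CPM in B16-F10 Ctrl, 20.8 and 20.9 CPM in YUMM2.1KO EV, 32.7 and 72.8 CPM in YUMM2.1 EV and 97.6 and 102.2 CPM in YUMM1.7 EV. YUMM1.7 EV was above YUMM2.1 EV by 0.93 ± 0.27 on the log2 scale (adjusted p = 0.0232), and B16-F10 Ctrl was below YUMM2.1 EV (-2.07 ± 0.29, adjusted p = 0.000212) and YUMM1.7 EV (-3.01 ± 0.30, adjusted p = 1.47e-05). The call between YUMM1.7 and YUMM2.1 was lost without either YUMM1.7 EV library, and the difference was 1.60 with the labels exchanged, while that between B16-F10 Ctrl and YUMM2.1 EV became -1.40. YUMM2.1KO EV and YUMM2.1 EV, neighbours in this order, did not overlap, and Klf4 did not pass by edgeR as labelled (-1.32, adjusted p = 0.0582). With the deposited labels it passed by DESeq2's Wald test (adjusted p = 6.74e-05), and by edgeR with no filter on low counts (5.93e-15) and in one fit of all 40 libraries (0.000966). It also passed by edgeR with the labels exchanged (-0.64, adjusted p = 0.00724).

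Klf9 was highest in YUMM1.7 EV, at 127 and 126 CPM, against 46.2 and 38.7 CPM in YUMM2.1 EV (log2 1.58 ± 0.12, adjusted p = 5.94e-06) and 54.3 and 45.5 CPM in B16-F10 Ctrl. It was lowest in YUMM2.1KO EV, at 25.8 and 25.2 CPM (-0.72 ± 0.13 against YUMM2.1 EV, adjusted p = 0.0222), a call lost without any 1 library of YUMM2.1KO EV or YUMM1.7 EV. Klf2 was at 7.18 and 10.6 CPM in YUMM1.7 EV and between 1.1 and 2.84 CPM in the other 3 groups, 6.01-fold higher than in YUMM2.1 EV (2.59 ± 0.47, adjusted p = 0.00177). Klf5, which drives growth of intestinal and other epithelia, was at 3.28 and 3.18 CPM in YUMM1.7 EV and at 0.336 and 0.242 CPM in B16-F10 Ctrl (log2 -3.47 ± 0.72, adjusted p = 0.00238). Klf10 was lower in B16-F10 Ctrl than in YUMM2.1 EV (-0.93 ± 0.31, adjusted p = 0.0292), a call lost without either B16-F10 Ctrl library or EV replicate 1 and in one fit of all 40 libraries, and the difference was -1.37 with the labels exchanged.

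Klf13 was at 132 and 130 CPM in YUMM1.7 EV and at 138 and 113 CPM in B16-F10 Ctrl, and lower in YUMM2.1 EV, at 100.4 and 88.7 CPM (log2 0.47 ± 0.11 and 0.38 ± 0.11 against YUMM2.1 EV, adjusted p = 0.00959 and 0.0174). These calls were lost without either YUMM1.7 EV library and without B16-F10 Ctrl replicate 1, and the latter also with the labels exchanged. Klf3, Klf6 and Klf7 passed in 0 of these 4 comparisons by edgeR as labelled. With the labels exchanged, Klf6 was lower in YUMM1.7 EV (-0.31, adjusted p = 0.0087) and in B16-F10 Ctrl (-0.30, adjusted p = 0.00823) than in YUMM2.1 EV. The exchange also gave calls against YUMM2.1 EV for Klf5 in YUMM1.7 EV (2.66, adjusted p = 0.0266) and for Klf10 in YUMM1.7 EV (-0.78, adjusted p = 0.0154) and YUMM2.1KO EV (-1.46, adjusted p = 0.00304), and 1 for Klf10 in B16-F10 Ctrl against YUMM1.7 EV (-0.59, adjusted p = 0.0195). In all, 4 of 9 members passed for YUMM1.7 EV and 1 of 9 for YUMM2.1KO EV against YUMM2.1 EV, and 3 of 9 and 4 of 9 for B16-F10 Ctrl against YUMM2.1 EV and YUMM1.7 EV, beside 37.1%, 1.75%, 54.3% and 54.5% of all genes. Those shares are near or above the members' own, except for YUMM2.1KO EV.

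**Figure D5:**
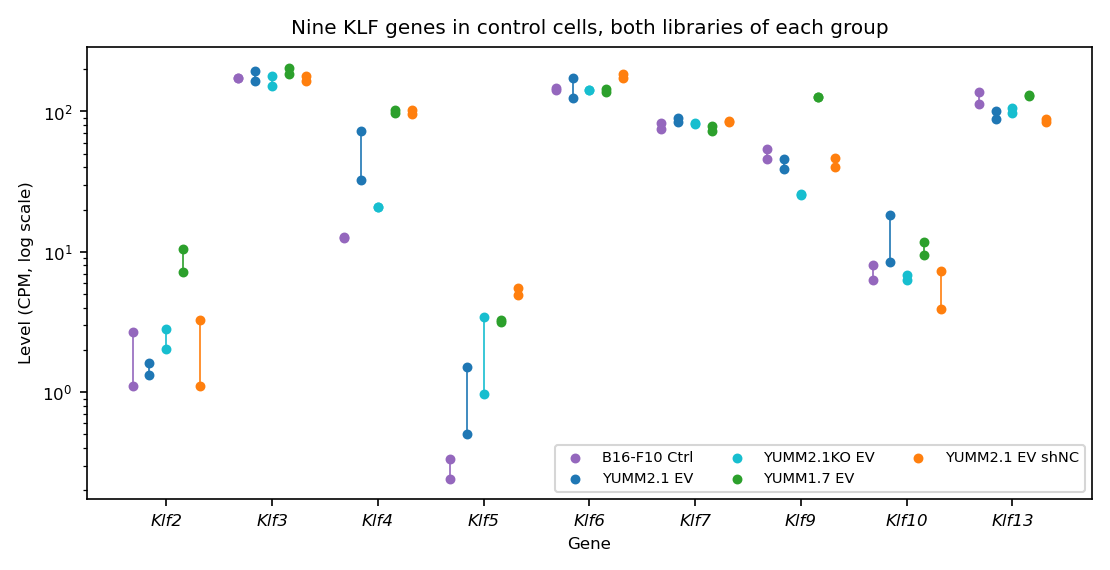
The 9 members in both libraries (points joined by a line) of 5 control groups, in CPM on a log axis. Klf3, Klf6 and Klf7 lie between 73.1 and 205.7 CPM in all 5 groups, while Klf4, Klf9, Klf2 and Klf5 differ more between groups, YUMM2.1 EV (32.7 and 72.8 CPM of Klf4) and YUMM2.1 EV shNC (103.0 and 96.4 CPM) among them.

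Few other members of the family could be tested. Of 8 further KLF genes, of which 2 to 4 were tested in a comparison, Klf11 rose with dHLH-Bmal1 in YUMM2.1KO cells (log2 1.52, edgeR adjusted p = 0.0389) and Klf16 fell with dHLH-Bmal1 in shNC cells (-1.02, adjusted p = 0.0316). In these 2 comparisons 10.9% and 26.4% of all genes passed. Of the further KLF genes 0 others passed in a construct, knockout or hairpin comparison, where 0% to 26.4% of all genes did. Klf15 was at 10.7 to 11.0 CPM in B16-F10 Ctrl and had no count in YUMM2.1 EV or YUMM1.7 EV. Of 9 SP genes, which share the KLF zinc fingers, Sp8 rose (adjusted p = 0.0184) with dHLH-Bmal1 in shNC cells and Sp1 fell by 0.44 (adjusted p = 0.0226) with shMyh9#4 in dHLH-Bmal1 cells, where 26.4% and 15.1% of all genes passed.

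Of 9 cofactors and ubiquitin ligases of KLFs, all tested, Ctbp2, which encodes a corepressor that Klf3 recruits, fell in YUMM2.1KO cells by 0.44 with WT-Bmal1 and 0.50 with dHLH-Bmal1 (adjusted p = 0.018 and 0.0098) and in shNC cells by 0.56 with WT-Bmal1 (adjusted p = 0.0175). Ctbp1, its paralog, fell with dHLH-Bmal1 in YUMM2.1KO cells (-0.31, adjusted p = 0.0482), and Crebbp, a coactivator, rose with WT-Bmal1 in shNC cells (0.32, adjusted p = 0.0491). With shMyh9#4 in dHLH-Bmal1 cells Ctbp1 fell (-0.69, adjusted p = 0.0291) and Crebbp rose (0.41, adjusted p = 0.019). Over all genes 11.2% passed for WT-Bmal1 and 10.9% for dHLH-Bmal1 in YUMM2.1KO cells, 22.3% for WT-Bmal1 in shNC cells and 15.1% for shMyh9#4 in dHLH-Bmal1 cells. In YUMM2.1 cells without a hairpin 0 of 9 cofactor and ligase genes passed for either construct against EV by edgeR, and 2 had an unadjusted p under 0.05 for dHLH-Bmal1. There 0% of all genes passed for WT-Bmal1 and 13.2% for dHLH-Bmal1.

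Genes upstream and downstream of KLFs were taken from fixed lists. Of 11 upstream genes, Nr3c1, the glucocorticoid receptor, rose with dHLH-Bmal1 in YUMM2.1 cells (log2 0.66, edgeR adjusted p = 0.02) and in shNC cells with both constructs (0.76, adjusted p = 0.00255, and 1.22, adjusted p = 2.12e-05). Mef2c, a MEF2 factor, rose with both constructs in shNC cells (0.72, adjusted p = 5.99e-05, and 0.87, adjusted p = 5.21e-06) and in YUMM2.1KO cells (0.77, adjusted p = 7.38e-05, and 0.55, adjusted p = 0.00113), and Tgfbr2 fell in 3 and rose in 1 of the comparisons with EV or its shNC control. In those with dHLH-Bmal1 against EV, 1 higher and 1 lower passed of 11 upstream genes in YUMM2.1 and 2 higher in shNC cells, beside 13.2% and 26.4% of all genes.

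Of 12 genes known as KLF targets, 8 were tested in YUMM2.1 and shNC cells. Lgals3, which encodes galectin-3, rose with dHLH-Bmal1 against EV in YUMM2.1 (log2 2.23, edgeR adjusted p = 0.00953) and in shNC cells with WT-Bmal1 (1.86, adjusted p = 2.08e-09) and dHLH-Bmal1 (2.09, adjusted p = 2.15e-10). Ccnd1, the cyclin D1 gene, fell in the same comparisons by 0.70, 0.89 and 0.90 on the log2 scale (adjusted p = 0.0282, 2.22e-05 and 1.21e-05). For dHLH-Bmal1 against EV in YUMM2.1, 2 higher and 1 lower passed of the 8 (median 0.73), and in shNC cells 1 higher and 2 lower (median 0.02), where 13.2% and 26.4% of all genes passed. For WT-Bmal1 in shNC cells 1 passed as higher and 4 as lower (Ccnd1, Cdkn1a, Ccl5 and Pdgfa), with a median of -0.41, beside 22.3% of all genes.

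Across the 20 groups, the genes whose mean levels ran most like those of Klf4 were sought among 8368 protein-coding genes with at least 10 CPM on average. The closest were Ino80c (Pearson r = 0.983 of log2 CPM), Csmd3 (0.975), Gsto1 (0.967), Rps14 (0.964) and Lpar6 (0.963). Among the members themselves, Klf2 and Klf9 (r = 0.81) and Klf3 and Klf4 (0.75) ran most alike. These 20 points share cell lines and constructs, and the values are a description.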

How the data were processed

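The authors prepared QuantSeq FWD 3′ libraries, sequenced single reads, aligned them to mm10 with bowtie2 and estimated counts per Ensembl gene with RSEM, and the deposited counts are whole numbers for 51789 genes. The Ensembl release and strand setting are not given in the sources used here. Symbols and positions are from GENCODE M21 (GRCm38), promoters from RefSeq (GRCm38.p6). All columns were used. The genotypes of the YUMM lines are not reported in full here.

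Each experiment was fitted in R 4.3.3 with edgeR 4.0.16 (TMM normalization, filterByExpr, quasi-likelihood F test), with p-values adjusted over all genes tested by the Benjamini-Hochberg method and called under 0.05. Levels are CPM with TMM factors over the 40 libraries. Standard errors (SE) belong to log2 fold changes, and the 95% intervals are normal intervals made with them, not adjusted for multiple tests. With 2 libraries a group the smallest two-sided permutation p is 0.333, so no permutation test was run. The scripts were tested on simulated counts.

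The members, lists and rules were chosen with earlier results of these data known. The text names the 9 members, list genes by their calls, Arntl, Myh9 and the 5 genes most like Klf4 (correlations with a pseudocount of 0.1 CPM). Alternatives were DESeq2 size factors, DESeq2 1.42.0, no filter, a filter at 10 mean counts, a joint fit of the 40 libraries, the replicate block, the exchanged labels, and leaving out libraries.

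As deposited, YUMM2.1 libraries with the same number in the labels deviated alike (every correlation between groups at least 0.199, over genes with a mean of at least 10 counts). If the 2 labels in question were exchanged, the EV and WT-Bmal1 deviations would both hold the difference between EV and WT-Bmal1. The correlations therefore cannot show whether libraries were paired. With the 2 labels exchanged their mean was -0.009 and the lowest was -0.195. In the other experiments the lowest was below 0.1.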

Additional observations from a re-analysis of the deposited data

Results flagged for a closer look

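Effects that differed between groups by a test of the difference itself (edgeR's quasi-likelihood test) drew attention. The effect of shMyh9#2 was different with a Bmal1 construct than with EV, by log2 -1.999 (Klf4), -1.35 (Klf9) and -0.79 (Klf3) for WT-Bmal1 and by -1.85 (Klf4), -1.07 (Klf9) and -0.82 (Klf3) for dHLH-Bmal1. The effect of dHLH-Bmal1 was different in YUMM2.1KO than in YUMM2.1 by -2.88 (Klf4) and -2.59 (Klf2), and in YUMM1.7 than in YUMM2.1 by -3.16 (Klf4) and -0.70 (Klf3). The 4 differences in the effect of dHLH-Bmal1 share the YUMM2.1 EV libraries, and all 4 kept their call with the labels exchanged and with both libraries in question left out. The groups have 2 libraries each, too few to look for an outlying library within a group.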

How the results depend on the processing

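Counts of members called stayed within 1.5 times of those given above under most settings. In the B16-F10 knockout, 0 calls became 3 with DESeq2's Wald test, 3 with no filter on low counts, 2 with the replicate block and 5 in one fit of all 40 libraries, as 64 calls over all genes became 433, 444, 249 and 1952. For YUMM2.1KO constructs 4 became 2 with DESeq2's Wald test and 0 in one fit of all 40 libraries, as 3166 calls over all genes became 2310 and 569. The 4 differences between construct effects became 7 with no filter and 8 with the labels exchanged, as calls over all genes in these 4 comparisons went from 4334 to 5441 and 8150. The 12 calls between lines rose with both libraries in question left out, which leaves YUMM2.1 EV with 1 library, and calls over all genes rose as well. The cause was not tested. With 1 library left out in turn, counts ranged from 0 to 9 (B16-F10 knockout), 0 to 4 (YUMM2.1KO constructs), 3 to 6 (YUMM2.1 constructs), 0 to 0 (YUMM1.7 constructs), 7 to 11 (shNC constructs), 4 to 8 (hairpins), 2 to 6 (hairpin effect differences), 3 to 7 (construct effect differences) and 9 to 19 (lines). A group left with 1 library was assumed to vary like the others of its fit. None of the member calls made with all libraries and the deposited labels changed direction under these settings. Klf10 in the B16-F10 knockout, which was not one of them, was called lower (-3.05) without knockout replicate 1 and higher (0.69) without knockout replicate 2.

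The replicate block gave 8 calls for YUMM2.1 constructs in place of 6, adding Klf9, and 6 for hairpins in place of 7. Calls over all genes went from 3762 to 7606 and from 4315 to 4048. It moved the remaining counts outside B16-F10 by at most 2. YUMM2.1 libraries of the same number deviated alike only as labelled. At the levels of Klf2, Klf5 and Klf10 (0.242 to 18.2 CPM in a library) counts of few reads limit what could be detected.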
